A study of Homo sapiens with 8 samples.

Results

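The clustered histone genes are the genes of the array design whose names begin with HIST1H, HIST2H, HIST3H or HIST4H, and the rule that takes them uses their names and not their measured values. The design holds 68 of them among 34809 gene names, namely 6 H1, 15 H2A, 19 H2B, 13 H3 and 15 H4 genes. RNA was measured in HuCCT1 cells, an established cell line of human intrahepatic cholangiocarcinoma, on 8 single-colour Agilent arrays. The cells carried 1 of 4 short hairpin vectors, with 2 arrays for each. The vectors shControl and shNontarget formed the control arm of 4 arrays, and shBEX2-1 and shBEX2-2, each with a hairpin against BEX2, formed the BEX2-knockdown arm of 4 arrays. The methods describe hairpins delivered by retroviral vectors and a control hairpin against luciferase. Which control vector holds that hairpin, and whether each subline is a clone or a pool, is not given in the sources used here. Whether both arrays of a vector stand for different cultures is not given in the labels, so the p-values measure only the spread between these arrays, which may be technical. All cells, controls included, were of the same line and carried a vector.

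Histone genes of these clusters encode the linker histone H1, which binds the DNA between nucleosomes, and the core histones H2A, H2B, H3 and H4, around which the DNA is wrapped. Most of them are transcribed as cells copy their DNA, and their mRNAs end in a conserved stem-loop, bound by the protein SLBP, in place of a poly(A) tail. Some members also give polyadenylated transcripts that extend past the stem-loop, above all in cells that leave the cycle or differentiate. The labelling kit named in the labels starts complementary DNA from a primer for poly(A) tails, and how much of the stem-loop form it captured was not tested here.

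Upstream stretches of 4 members are printed here to show which of the elements below each carries, and because their genes changed in different ways. Each is the 250 bases before the transcription start in RefSeq (GRCh38.p14), read 5′ to 3′ on the strand of the gene, with the CCAAT box, the TATA box (written TATAAA) and the octamer (written ATTTGCAT) in capitals on either strand. HIST1H1A, an H1 gene that rose, lies on the minus strand with the stretch at chr6:26017788-26018037. HIST1H3B, an H3 gene that rose, lies on the minus strand with the stretch at chr6:26032100-26032349. HIST1H2BM, an H2B gene that did not pass the test, lies on the plus strand with the stretch at chr6:27814772-27815021. Its only TATA box is on the opposite strand at -219, in the interval that it shares with its neighbour HIST1H2AJ. HIST3H2A, an H2A gene that fell, lies on the minus strand with the stretch at chr1:228457874-228458123. HIST1H1A and HIST1H3B have no octamer, and HIST3H2A has neither an octamer nor a TATA box.
HIST1H1A: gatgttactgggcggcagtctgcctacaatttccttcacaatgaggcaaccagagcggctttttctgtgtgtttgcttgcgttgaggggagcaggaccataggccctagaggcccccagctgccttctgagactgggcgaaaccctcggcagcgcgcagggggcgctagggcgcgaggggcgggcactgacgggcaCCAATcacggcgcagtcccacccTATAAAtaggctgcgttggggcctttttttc
HIST1H3B: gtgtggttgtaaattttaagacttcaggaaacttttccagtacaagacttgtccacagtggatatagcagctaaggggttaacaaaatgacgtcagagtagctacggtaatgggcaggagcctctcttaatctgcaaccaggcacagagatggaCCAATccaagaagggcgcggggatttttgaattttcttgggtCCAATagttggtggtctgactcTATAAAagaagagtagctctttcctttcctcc
HIST1H2BM: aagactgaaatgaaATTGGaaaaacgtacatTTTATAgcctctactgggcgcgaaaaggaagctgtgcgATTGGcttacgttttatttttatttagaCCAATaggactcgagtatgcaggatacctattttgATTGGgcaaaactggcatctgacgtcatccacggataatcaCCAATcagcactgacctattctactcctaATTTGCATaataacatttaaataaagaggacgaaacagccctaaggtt
HIST3H2A: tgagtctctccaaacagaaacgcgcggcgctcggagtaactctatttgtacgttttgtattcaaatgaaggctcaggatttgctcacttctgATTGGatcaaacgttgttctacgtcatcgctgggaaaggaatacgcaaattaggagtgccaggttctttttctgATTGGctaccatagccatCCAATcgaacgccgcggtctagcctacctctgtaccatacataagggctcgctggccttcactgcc

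All 68 members were found in the RefSeq table and 62 had an upstream sequence there. In a window from 250 bases before to 50 after the start, the octamer, a site known to be bound by POU2F1, was present on either strand in 14 of 18 H2B and 10 of 14 H2A genes, in 1 of 11 H3 genes and in 0 of 6 H1 and 0 of 13 H4 genes. The H3 gene is HIST1H3D, whose start in the table is that of the H2A gene HIST1H2AD, so that both have the same window and the octamer is counted in both classes. Among 27305 windows of all genes in the table, 1.8% held it. The CCAAT box was present in 52 of 62 members, against 35.7% of all windows, and the TATA box in 40 of 62, against 12% of all windows. Matches on either strand were counted, so the window of a gene can hold a box of its back-to-back neighbour. Of the 13 H4 genes, 3 held a CCAAT box, whereas all H1, H2A, H2B and H3 genes did. Many H2A and H2B genes lie back to back, and in such pairs an interval of 194 to 246 bases precedes both starts. A match of letters is a description of the window and not of binding.

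The arrays were read before the comparisons for signs that one stood apart. Levels are given as log2 of the processed intensity minus the 75th percentile of the array, so that a negative level is dimmer than that percentile and a difference of 1 is a factor of 2. That percentile ran from 667 to 838 intensity units in the control arm and from 441 to 631 in the knockdown arm, and 59.78% to 64.65% of the spots were marked as well above background. The number of arrays limits the precision of each value. BEX2, the targeted gene, measured -3.36 and -3.91 with shControl, -2.70 and -3.77 with shNontarget, -5.21 and -5.54 with shBEX2-1, where it was not well above background, and -4.92 and -4.60 with shBEX2-2. Its 4 knockdown arrays lay below its 4 control arrays. Of the markers, 6 of 6 biliary epithelial genes were well above background on all 8 arrays, whereas the hepatocyte genes ALB, APOA2, TTR and CYP3A4 were well above background on none. The remaining hepatocyte gene, TAT, was well above background on 3 arrays. Of the immune markers, CD3E was well above background on no array, while CD14 and CD68 rose by 0.54 and 0.99 in knockdown cells. Of 5 fibroblast markers, COL1A1 and LUM were well above background on all 8 arrays, DCN on both shBEX2-1 arrays alone, and COL1A2 and COL3A1 on none. The change of COL1A1 was -0.38 (adjusted p = 0.547), and that of LUM was 1.06 in shBEX2-1 (adjusted p = 0.052) and -1.12 in shBEX2-2 (adjusted p = 0.0362). The summed level of the fibroblast list ran from -0.028 to 0.24 in control and from -0.86 to 0.73 in knockdown arrays. The part of these markers in the histone values was not tested. The arrays lay on 1 slide, with the control arrays in 1 row and the knockdown arrays in the other, and slide row and group cannot be told apart.

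The shNontarget arrays stood apart from each other, and this touched most histone genes. A gap of more than 1 on the log2 scale between the arrays of a vector was seen in 34.8% of the 20343 genes tested for shNontarget, against 1.72% for shControl, 1.51% for shBEX2-1 and 0.546% for shBEX2-2. Of the 63 members tested, 61 were higher on shNontarget replicate 1 than on replicate 2, with a median gap of 0.90, whereas the median over all genes was -0.10. The widest gaps were those of HIST1H2BF (2.01), HIST1H3E (1.69) and HIST1H2BK (1.56). For the other vectors the median absolute gap of the members was 0.17 (shControl), 0.26 (shBEX2-1) and 0.12 (shBEX2-2). Counts of calls are therefore given with and without these arrays.

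Of the 68 members, 63 passed the filter on dim probes, for which 4 or more of the 8 arrays had to be well above background, and 62 were well above background on all 8. The 5 that did not pass were HIST1H1T, a testis H1 gene, HIST1H2BA, a testis H2B gene, HIST1H4G, HIST2H2BA and HIST2H4A, and 3 of these were well above background on no array. Probes of the same class whose sequences were identical over 90% or more of at least 40 aligned bases were those of HIST1H2BD with HIST1H2BG, and those among HIST1H4F, HIST1H4I, HIST1H4K and HIST2H4B. Their values, and those of HIST2H2AA4 and HIST2H3A, which have near-identical copies in the genome, may hold signal of more than 1 gene. Probes were compared with each other and not with whole transcripts, so values of other members may hold such signal as well.

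HIST1H1A, HIST1H1B, HIST1H3B and 13 other clustered histone genes gave a higher signal in BEX2-knockdown than in control cells, and the H2A genes HIST1H2AC and HIST3H2A a lower one. In limma with Benjamini-Hochberg adjustment over all 20343 genes, 16 of the 63 members tested rose and 2 fell, against 6.67% and 6.24% of all genes, and the other 45 did not pass. The median change of the members was 0.49, against 0.027 over all genes, and 44 of 63 changes were positive. With the array that stood highest, shNontarget replicate 1, left out, 36 members rose and 2 fell, against 12% and 11.1% of all genes, and with shNontarget replicate 2 left out 15 rose and 2 fell, against 10.5% of all genes in each direction. With any 1 of the 6 arrays of the other vectors left out, 6 to 12 rose, against 3.2% to 4.34% of all genes, the fewest without shBEX2-2 replicate 1. With shControl as the only control, 37 rose and 2 fell, against 17.2% and 16.3%, whereas in limma with shNontarget as the only control none passed, against 0.973% and 0.718% of all genes, and 18 members and 18.6% of all genes had an unadjusted p under 0.05. Arrays of the 2 arms did not overlap for 19 members, 16 higher and 3 lower in knockdown cells, a share to be read against 22.1% of all genes. In bulk RNA, fewer cells of a type and less RNA in each of them cannot be told apart.

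H1 had the highest and H2B the lowest class median. The median change was 1.06 for H1 (5 tested), 0.66 for H2A (15), 0.63 for H4 (13) and 0.58 for H3 (13), and -0.0078 for H2B (17). Of the members that rose, 3 were H1, 4 H2A, 1 H2B, 6 H3 and 2 H4 genes, and both that fell were H2A genes. Of all genes, 6.67% rose and 6.24% fell. The difference between classes was not tested, since members of a class are not replicates. By genome position the HIST1 members, in the large cluster on chromosome 6, had a median of 0.52 (51 tested), and the HIST2 members on chromosome 1 had a median of 0.49 (8 tested). Within the chromosome 6 cluster the median was 0.49 for the 31 members of its first block and 0.57 for the 20 members of its second.

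**Figure D1:**
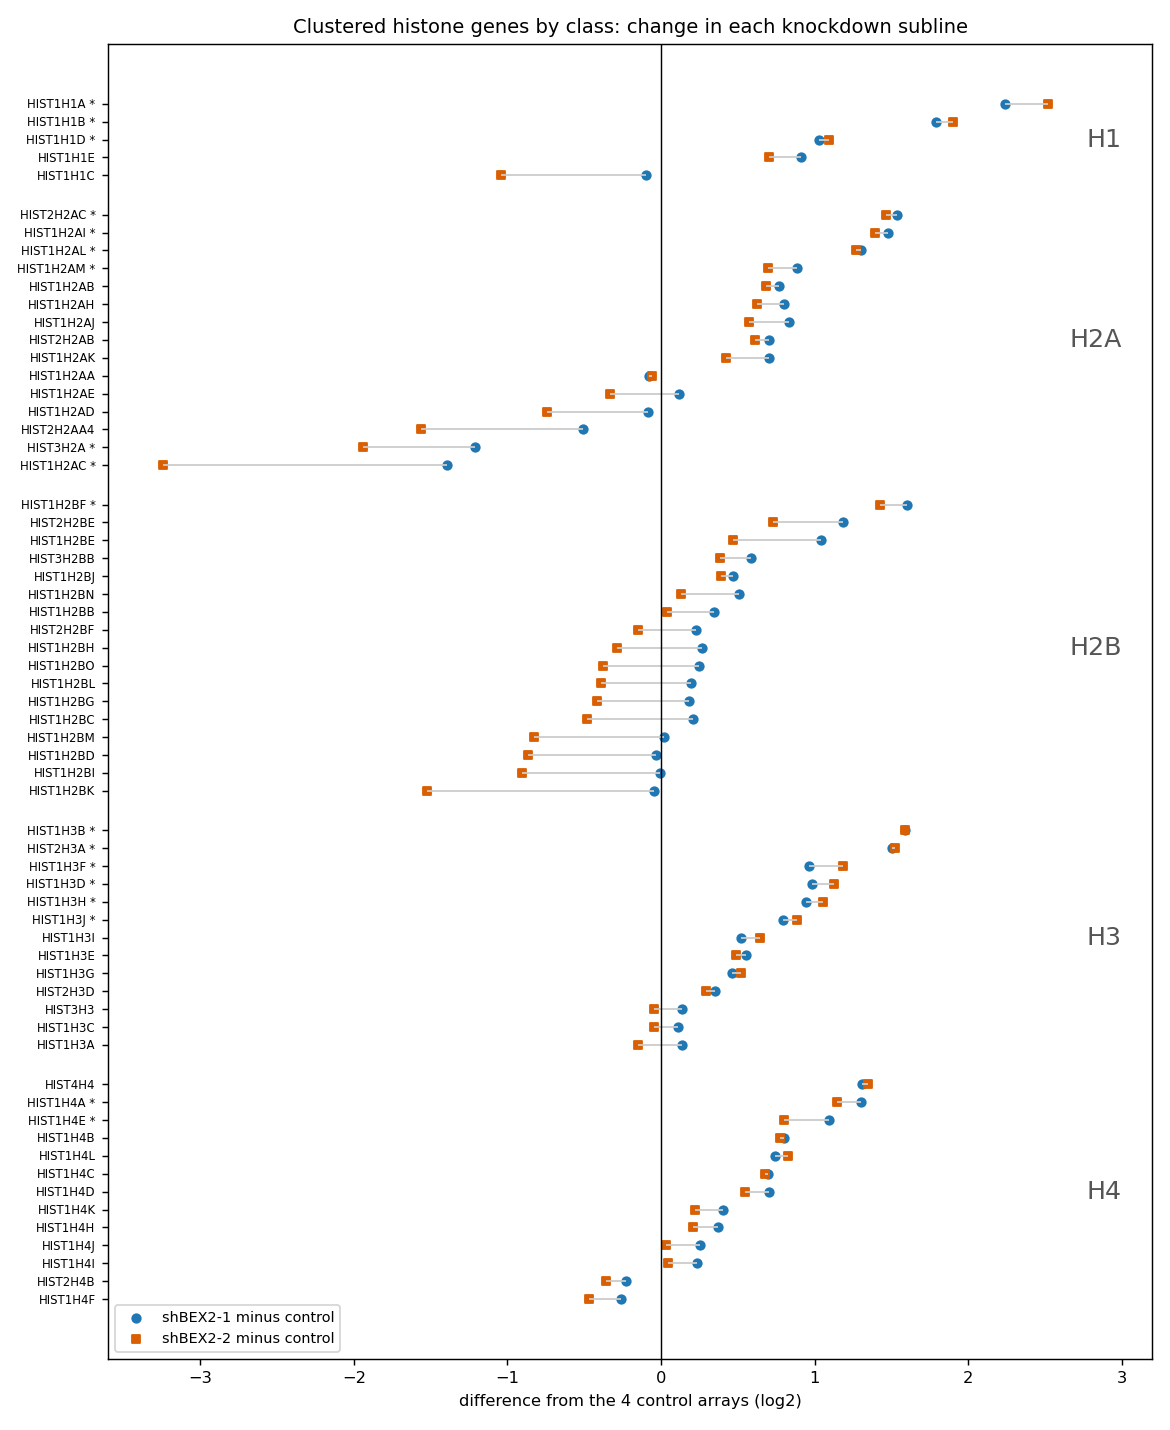
Log2 difference from the mean of the 4 control arrays for the 63 members tested, in shBEX2-1 (blue circles) and shBEX2-2 (orange squares), sorted within each class; the line joins the values of a gene, and * marks the 18 members called in the comparison of all 4 knockdown with all 4 control arrays. The H1, H3 and H4 points lie mostly to the right of 0, and all 17 H2B members have the orange square to the left of the blue circle.

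Among the linker histones, HIST1H1A (probe at chr6:26017351-26017410 of hg19, minus strand) rose most of all 63 members. It measured -1.25 and -1.32 with shControl, -0.31 and -1.87 with shNontarget, 1.28 and 0.83 with shBEX2-1 and 1.48 and 1.19 with shBEX2-2. Every knockdown array lay above every control array, and the log2 change was 2.38 (SE 0.30, limma adjusted p = 0.00209). HIST1H1B (probe at chr6:27834629-27834688), which encodes the subtype H1.5, measured -0.58 and -0.84 with shControl, 0.12 and -1.01 with shNontarget, 1.43 and 1.00 with shBEX2-1 and 1.43 and 1.22 with shBEX2-2. Its change was 1.85 (SE 0.24, adjusted p = 0.00233), again with no overlap. HIST1H1D, subtype H1.3, rose by 1.06 (SE 0.21, adjusted p = 0.0111). HIST1H1E, subtype H1.4, had a change of 0.81 and did not pass (adjusted p = 0.0627), with 1 shNontarget array (2.78) above 2 knockdown arrays.

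HIST1H1C, subtype H1.2, was the H1 gene with a negative change. It measured 4.21 and 4.08 with shControl, 5.03 and 4.44 with shNontarget, 4.42 and 4.26 with shBEX2-1 and 3.48 and 3.32 with shBEX2-2. The shBEX2-1 arrays lay within the control range and the shBEX2-2 arrays below it. In the fit of the 4 vectors the change was -0.10 in shBEX2-1 (adjusted p = 0.831) and -1.04 in shBEX2-2 (adjusted p = 0.0273), and the difference between the sublines, 0.94, did not pass (adjusted p = 0.296). HIST1H1C is 1 of the members known to give polyadenylated transcripts. Different probes bind differently, so levels are compared within a probe and not between genes.

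**Figure D2:**
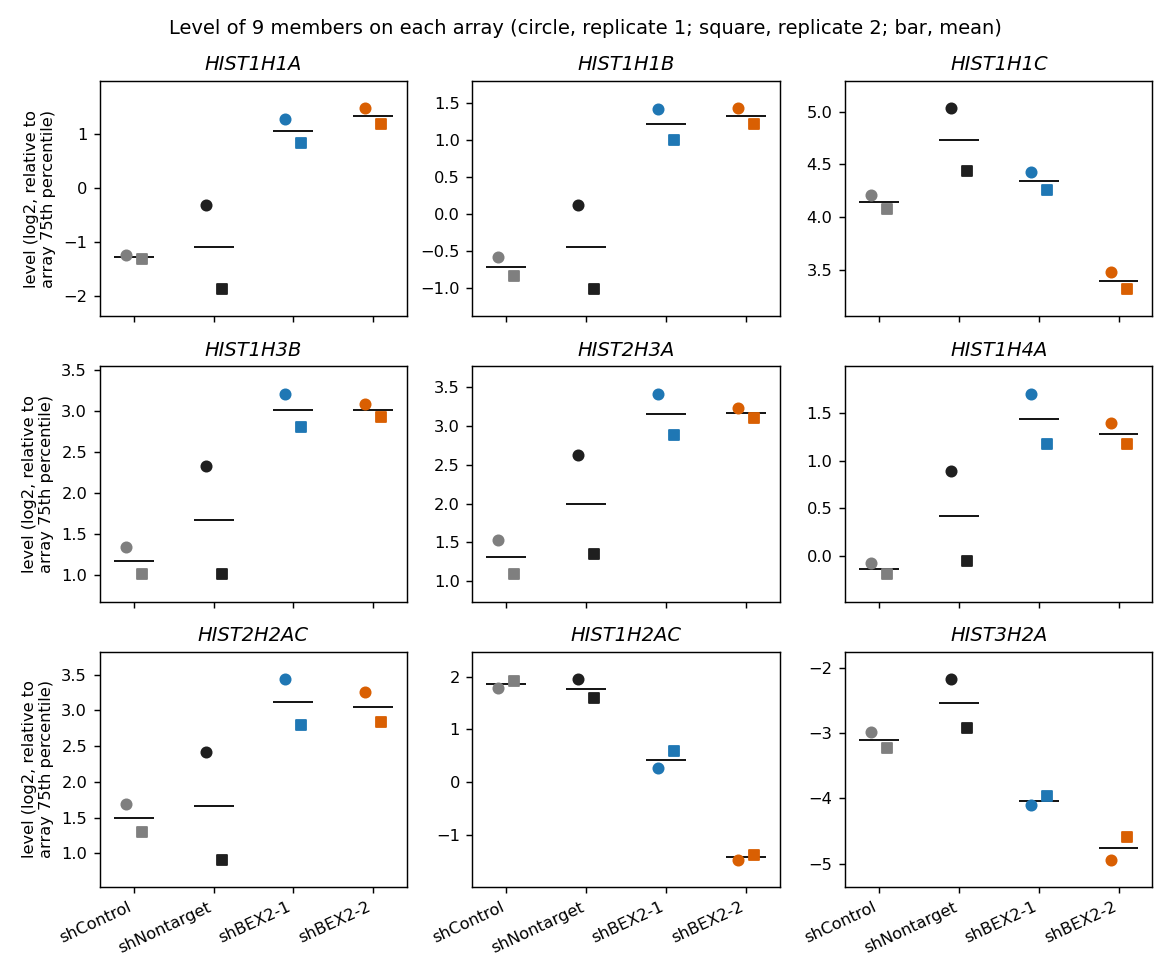
Level of 9 members (log2 of processed intensity relative to the 75th percentile of the array) with each of the 4 vectors; circles are replicate 1, squares replicate 2 and bars the mean of both arrays. HIST1H1A, HIST1H1B, HIST1H3B, HIST2H3A, HIST1H4A and HIST2H2AC are higher on all 4 knockdown arrays, HIST1H2AC and HIST3H2A are lower on all 4, and HIST1H1C is lower only on the shBEX2-2 arrays.

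H3 genes, whose protein carries many of the regulatory marks of chromatin, rose in 6 of 13 cases and fell in 0, and 12 of 13 changes were positive. The shares of all genes were 6.67% higher and 6.24% lower. HIST1H3B (probe at chr6:26031922-26031981) measured 1.34 and 1.01 with shControl, 2.33 and 1.01 with shNontarget, 3.21 and 2.80 with shBEX2-1 and 3.09 and 2.93 with shBEX2-2. The lowest knockdown array exceeded the highest control array, and the change was 1.59 (SE 0.28, adjusted p = 0.00769). HIST2H3A, of the cluster on chromosome 1 (probe at chr1:149812261-149812320), measured 1.53 and 1.09 with shControl, 2.63 and 1.36 with shNontarget, 3.42 and 2.89 with shBEX2-1 and 3.23 and 3.11 with shBEX2-2. Its change was 1.51 (SE 0.31, adjusted p = 0.0134) with no overlap. The other 4 that rose were HIST1H3F (1.07), HIST1H3D (1.05), HIST1H3H (1.00) and HIST1H3J (0.84). HIST1H3A, HIST1H3C and the testis gene HIST3H3 had changes of -0.0067, 0.034 and 0.047 and did not pass.

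Most H4 genes encode the same protein, and 2 of the 13 tested rose, against 6.67% of all genes. HIST1H4A (probe at chr6:26022181-26022240) measured -0.08 and -0.20 with shControl, 0.90 and -0.06 with shNontarget, 1.71 and 1.17 with shBEX2-1 and 1.40 and 1.17 with shBEX2-2. Its change was 1.22 (SE 0.25, adjusted p = 0.0138), and a second probe of the gene, 26 bases away, gave 1.24. HIST1H4D and HIST1H4L did not pass on their brightest probes (0.63 and 0.78), but a second probe of each gave 1.42 (limma adjusted p = 0.0112 over all probes) and 1.64 (adjusted p = 0.00385). HIST1H4E rose by 0.95 (SE 0.26, adjusted p = 0.0424) with overlapping arrays. HIST1H4C measured 5.71 and 5.34 with shControl, 6.76 and 5.33 with shNontarget, 6.60 and 6.35 with shBEX2-1 and 6.51 and 6.41 with shBEX2-2. The shNontarget replicate 1 array was the highest of the 8, and the change of 0.69 did not pass (adjusted p = 0.177). HIST4H4, the only member on chromosome 12, was not well above background on the shControl arrays (-5.47 and -5.75), measured -3.78 and -4.50 with shNontarget, and lay between -3.72 and -3.42 on the knockdown arrays. Its change of 1.33 did not pass (adjusted p = 0.0627).

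H2A was the class with calls in both directions. HIST2H2AC (probe at chr1:149858863-149858922) measured 1.70 and 1.30 with shControl, 2.42 and 0.91 with shNontarget, 3.44 and 2.79 with shBEX2-1 and 3.26 and 2.84 with shBEX2-2. Its change was 1.50 (SE 0.31, adjusted p = 0.0138). HIST1H2AI rose by 1.44 (SE 0.32, adjusted p = 0.0189), from -1.38 to 0.09 on the control arrays to 0.25 to 0.91 on the knockdown arrays. HIST1H2AL and HIST1H2AM rose by 1.28 and 0.79.

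The H2A genes that fell were HIST1H2AC, over all arrays on 1 of its 3 probes, and HIST3H2A. HIST1H2AC (probe at chr6:26138822-26138881, plus strand) measured 1.79 and 1.92 with shControl, 1.96 and 1.59 with shNontarget, 0.26 and 0.58 with shBEX2-1 and -1.48 and -1.38 with shBEX2-2. The shBEX2-2 arrays lay below the shBEX2-1 arrays and these below all controls. The change was -2.32 over the 4 knockdown arrays (SE 0.45, adjusted p = 0.0114), -1.39 in shBEX2-1 (adjusted p = 0.00958) and -3.24 in shBEX2-2 (adjusted p = 0.00222), and the difference between the sublines, 1.85, did not pass (adjusted p = 0.0571). HIST3H2A, of the small cluster on chromosome 1, measured -2.98 and -3.22 with shControl, -2.17 and -2.92 with shNontarget, -4.11 and -3.96 with shBEX2-1 and -4.94 and -4.59 with shBEX2-2. It changed by -1.58 (SE 0.30, adjusted p = 0.00996). HIST2H2AA4 did not pass over the 4 knockdown arrays (-1.04, adjusted p = 0.0677) although its arrays did not overlap, and it fell in shBEX2-2 by 1.57 (adjusted p = 0.00329), as did HIST1H2AD by 0.74 (adjusted p = 0.0382).

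H2B was the class with the fewest calls, 1 of 17 higher and 0 lower. This was near the shares of all genes, 6.67% higher and 6.24% lower. HIST1H2BF (probe at chr6:26200153-26200212) measured -2.48 and -2.77 with shControl, -1.38 and -3.38 with shNontarget, -0.72 and -1.08 with shBEX2-1 and -1.01 and -1.13 with shBEX2-2. It rose by 1.51 (SE 0.37, adjusted p = 0.0275), and it was also the member with the widest gap between the shNontarget arrays. Among the others 7 changes were positive and 9 negative, none of which passed, and HIST1H2BK had the most negative, -0.79 (adjusted p = 0.298).

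**Figure D3:**
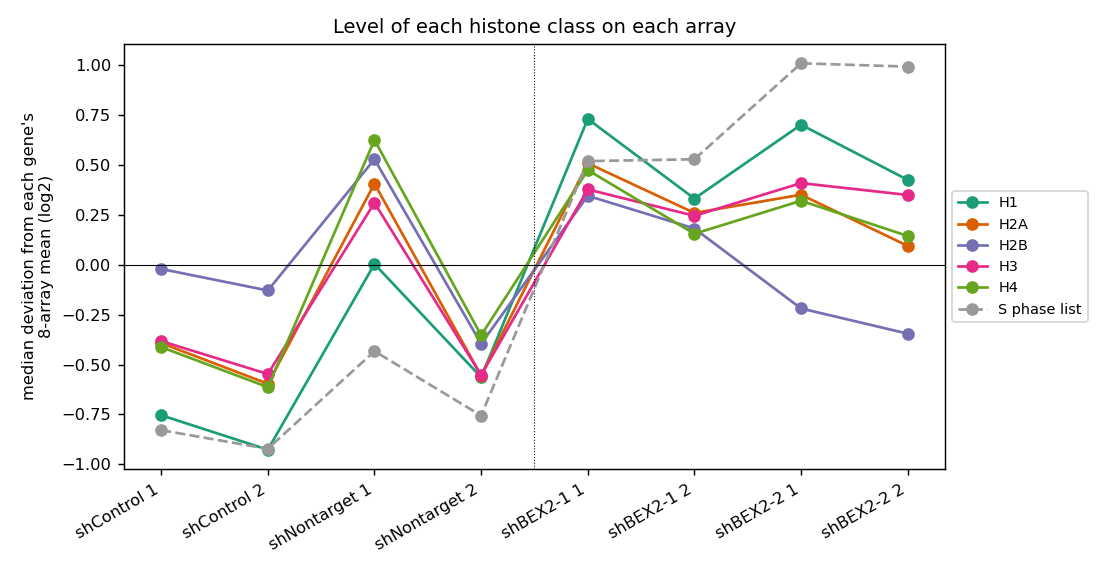
Median over the tested members of each class of the deviation of a gene from its own mean over the 8 arrays (log2), for each array; the grey dashed line gives the same for a list of 42 genes of S phase, the phase of DNA replication. On shNontarget replicate 1 the H4 median was 0.63 and the H2B median 0.53. The S phase median there was -0.43, the highest of the control arrays, on which it ran from -0.92 to -0.43. On the shBEX2-2 arrays the H2B median was -0.22 and -0.34 while those of the other classes were above 0.

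Each subline was also compared with the same 4 control arrays, so that these comparisons share their controls. In shBEX2-1, 4 members rose and 1 fell, against 3.41% and 3.63% of all genes. They were HIST1H1A, HIST1H1B, HIST1H1D and HIST4H4, and HIST1H2AC. HIST4H4 was not well above background on the shControl arrays, and its 4 knockdown arrays were enough to meet the filter on dim probes. Its difference between the control vectors (1.47, shNontarget minus shControl) exceeded its change in shBEX2-1 (1.31) and in shBEX2-2 (1.35). In shBEX2-2, 8 rose and 5 fell, against 4.86% and 4.83%. The 8 were the same H1 genes and HIST4H4 with HIST1H3B, HIST1H3D, HIST1H3F and HIST1H3H, and the 5 were HIST1H1C, HIST1H2AC, HIST1H2AD, HIST2H2AA4 and HIST3H2A. These counts moved with single arrays. With any 1 of the 6 shControl, shBEX2-1 and shBEX2-2 arrays left out, a vector had 1 array. In these fits the share of all genes called also fell in both sublines, so the loss of calls is not read as a result about the members. With each of the 8 arrays left out in turn, the change of HIST1H1A ran from 1.85 to 2.63 in shBEX2-1 and from 2.13 to 2.91 in shBEX2-2. That of HIST1H2AC ran from -1.56 to -1.23 and from -3.33 to -3.15. Without shNontarget replicate 1, 54 rose and 3 fell in shBEX2-1 (26.8% and 26.2% of all genes), and 38 rose and 9 fell in shBEX2-2 (24% and 27.6%). Without replicate 2, 33 rose and 11 fell in shBEX2-1 (29.8% and 22.9% of all genes), and 27 rose and 21 fell in shBEX2-2 (29.4% and 25.2%). In these fits the lone shNontarget array was assumed to vary like the arrays of the other vectors.

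The H2B class had the highest median difference between the sublines, and no member passed the test of it with all arrays. Between shBEX2-1 and shBEX2-2 the H2B change was positive, that is higher in shBEX2-1, in 17 of 17 members with a median of 0.57, whereas 11286 of 20343 genes were higher in shBEX2-1 with a median of 0.039. The median was 0.19 for H2A, 0.16 for H4, -0.017 for H3 and -0.067 for H1. In limma 0 members passed, against 0.00983% of all genes, and 6 members (1485 of all genes) had an unadjusted p under 0.05. When either shNontarget array was left out, 18 members passed, all higher in shBEX2-1, against 7.08% (without replicate 1) and 7.23% (without replicate 2) of all genes. Of these 18, 11 were H2B, 5 H2A, 1 H1 and 1 H3 genes. HIST1H2BI measured 1.96 and 1.95 with shBEX2-1 and 1.11 and 1.01 with shBEX2-2, against 2.00 and 1.93 with shControl. HIST1H2BM measured 2.02 and 1.99 with shBEX2-1 and 1.17 and 1.14 with shBEX2-2, against 1.95 and 1.93 with shControl. With shNontarget they measured 2.59 and 1.34 (HIST1H2BI) and 2.70 and 1.35 (HIST1H2BM). The shBEX2-2 arrays of both genes lay below all others, the nearest being shNontarget replicate 2, and the control arrays spanned the shBEX2-1 values.

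Between the control vectors no member passed in limma, against 0% of all genes, and 8 members (and 1552 of all genes) had an unadjusted p under 0.05. The difference shNontarget minus shControl was nevertheless positive in 59 of 63 members, with a median of 0.39 against -0.011 over all genes. Without shNontarget replicate 2 the difference passed in 60 members, all higher, against 21.5% of all genes, and without replicate 1 it passed in 4 higher and 16 lower members, against 23.9% and 21.4%. The sign of the difference between the control vectors thus turned with the array.

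Members known to give polyadenylated transcripts were read as a list of 11 genes, 10 of them on the array and tested. Over the 4 knockdown arrays none rose and 2 fell (HIST1H2AC, on its brightest probe, and HIST3H2A), against 6.67% and 6.24% of all genes. The median change of the 10 was -0.29, against 0.49 over all members and 0.027 over all genes. The median was 0.091 in shBEX2-1 and -0.67 in shBEX2-2. In shBEX2-1 1 of the 10 rose and 1 fell, against 3.41% and 3.63% of all genes. In shBEX2-2 1 rose and 3 fell, against 4.86% and 4.83%. The gene that rose was HIST4H4 in both, which was not well above background on the shControl arrays. The genes of this list that were dimmer in shBEX2-2 than on the shControl arrays included HIST1H2BD, which measured 1.30 and 1.25 with shControl, 1.91 and 1.01 with shNontarget and 0.50 and 0.50 with shBEX2-2 and did not pass (adjusted p = 0.0844 in shBEX2-2).

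Probes of 1 gene, at different distances into its transcripts, did not give the same change. For HIST1H2AC the brightest probe, 1100 bases into its transcript and 14361 bases downstream of the nearest other, gave -2.32. The array design assigns it to a different transcript record from the other probes of the gene, so the offsets do not count along the same transcript. Those probes, at 88 and 30 bases, gave -0.11 and -0.55. They did not pass over the 4 knockdown arrays (limma adjusted p = 0.787 and 0.262 over all probes). On the probe at 88 bases the gene measured -0.31 and -0.47 with shControl, 0.33 and -0.11 with shNontarget, 0.04 and -0.06 with shBEX2-1 and -0.41 and -0.56 with shBEX2-2, so that the arms overlapped. The probe at 30 bases measured -2.70 and -2.77 with shControl, -2.30 and -2.87 with shNontarget, -2.69 and -2.68 with shBEX2-1 and -3.68 and -3.77 with shBEX2-2. Its shBEX2-2 arrays lay below all others, and it fell in shBEX2-2 by 1.07 (limma adjusted p = 0.025). HIST2H2BE gave a change of 0.96 on the probe at 72 bases (adjusted p = 0.0958). Its probe at 1109 bases was well above background on the 4 control arrays (-4.26 and -4.10 with shControl, -4.06 and -3.26 with shNontarget) and on no knockdown array, at least 2.63-fold lower there. For HIST1H2BK the probe at 642 bases, 8246 bases from the other, gave -1.53 in shBEX2-2 and the probe at 123 bases gave -0.58.

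The difference between the probes of a gene was tested on the arrays themselves, as the change of one minus the change of the other in an exact two-sided permutation test over 4 and 4 arrays, for the 10 probe pairs in which both probes could be measured in both arms. The pair of HIST2H2BE was left out, since its far probe has only a bound in knockdown cells. The difference was -2.21 and -1.77 for the probe pairs of HIST1H2AC, 0.88 for HIST2H2BF (1739 bases apart), -0.80 for HIST1H4D (49 bases) and -0.45 for HIST1H2AM (70 bases), each with an exact permutation p = 0.0286, the smallest that 70 relabellings allow, and p = 0.0571 after Benjamini-Hochberg adjustment over the 10 pairs, so none passed 0.05. For HIST1H4L, with probes 105 bases apart, the difference was -0.85 (exact permutation p = 0.0571), and for HIST1H2BK it was -0.55 (exact permutation p = 0.114). The widest differences were those of the HIST1H2AC pairs, whose probes also lay furthest apart. The order by distance was not kept in every pair, since the near pairs of HIST1H4L and HIST1H4D lay further apart in change than the far pair of HIST1H2BK. A relation between distance and difference was not tested.

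**Figure D4:**
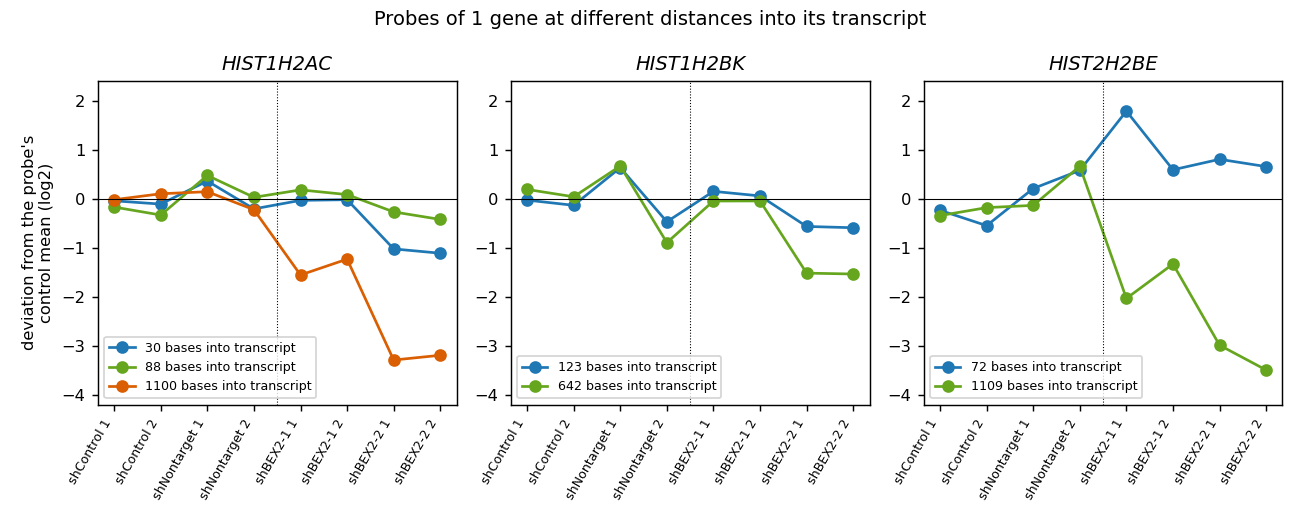
Deviation of each probe from its own mean over the 4 control arrays (log2) on the 8 arrays, for 3 genes with probes at different distances into their transcripts. The far probe of HIST1H2AC is assigned to a different transcript record from its near probes. The dotted line parts control from knockdown arrays. For HIST1H2AC and HIST2H2BE the far probe (1100 and 1109 bases) lies below 0 on all 4 knockdown arrays, where that of HIST2H2BE was not well above background and its points have no order. The near probes of HIST1H2AC stay near 0 in shBEX2-1, and that of HIST2H2BE (72 bases) lies above 0.

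Neighbours on opposite strands whose starts lie within 1000 bases were set side by side as well. HIST3H2A and HIST3H2BB start 230 bases apart on opposite strands, and their changes were -1.58 and 0.48 (the latter adjusted p = 0.125). HIST1H2AJ and HIST1H2BM start 245 bases apart, with changes of 0.70 and -0.40, and HIST1H2AI and HIST1H2BL start 244 bases apart, with changes of 1.44 and -0.10. The change of the first gene minus that of its neighbour was -2.06 for HIST3H2A with HIST3H2BB, 1.11 for HIST1H2AJ with HIST1H2BM, and -1.53 for HIST1H2BL with HIST1H2AI. Each of these, and 7 of the 11 pairs of neighbours in all, had p = 0.0286 in the exact two-sided permutation test and p = 0.0449 after Benjamini-Hochberg adjustment over the 11 pairs. As 0.0286 is the smallest p that 70 relabellings allow, the adjusted value depends on how many pairs reach it, and it does not rank the 7. Among the 7, HIST1H3F and HIST1H2BH start 979 bases apart. HIST1H2BG and HIST1H2AE, 233 bases apart, had changes of -0.12 and -0.11, and their difference of -0.0056 did not pass (exact permutation p = 0.971). HIST1H2AC and its neighbour HIST1H2BC were among the 7, with the far probe of HIST1H2AC. That probe gave -2.32 against -0.14 for HIST1H2BC, whereas the HIST1H2AC probe at 88 bases gave -0.11. The pair was not tested with the probe at 88 bases. The adjusted value of all 7 pairs depends on their number, so it rests on this choice of probe. No pair is therefore read as passing after adjustment. HIST1H2AD and HIST1H3D, which have the same start in the table, make 2 of the 11 pairs with HIST1H2BF. Among H2B genes with an octamer the median change was -0.0078 (13 tested) and among those without it 0.11 (4 tested), whereas among H2A genes it was 0.68 with an octamer (10 tested) and -0.24 without (4 tested).

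Histone variants outside the clusters, many of whose mRNAs carry poly(A) tails, were read as a list of 15 genes, 12 of them tested. CENPA, the H3 variant of centromeres, rose by 1.64 (SE 0.23, adjusted p = 0.003), and H2AFX, the H2A variant phosphorylated at DNA breaks, rose by 1.30 (SE 0.20, adjusted p = 0.00441). These were the 2 of 12 that rose and none fell, against 6.67% and 6.24% of all genes, and the median was 0.39. CENPA measured -1.29 and -1.43 with shControl, -0.45 and -1.11 with shNontarget, 0.46 and 0.28 with shBEX2-1 and 0.88 and 0.68 with shBEX2-2, with no overlap. H2AFZ, H1F0, H3F3A and H3F3B, replication-independent genes, had changes of 0.70, 0.34, 0.18 and -0.074 and did not pass (adjusted p = 0.132, 0.436, 0.689 and 0.819).

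Genes for the transcription of histone genes and the processing of their mRNAs passed the test in 6 of 19 cases, and for this list and the next the share of all genes is 6.67% higher and 6.24% lower. SLBP, the stem-loop binding protein, had a change of 0.60 (adjusted p = 0.0831) and rose in shBEX2-2 (0.87, adjusted p = 0.0384). NPAT, the activator that gathers at histone gene clusters, had a change of 0.12 (adjusted p = 0.649). Of the list, 5 rose and 1 fell, with a median of 0.33. CDK2 and CCNE1, the kinase and cyclin that phosphorylate NPAT, rose by 1.52 (SE 0.13, adjusted p = 0.000687) and 1.51 (SE 0.14, adjusted p = 0.000887). The others that rose were POU2F1 (0.75), CSTF2 (0.70) and ERI1 (0.56), the nuclease that trims histone mRNA ends. HINFP, a factor of H4 promoters, fell by 0.58 (adjusted p = 0.0458), and ZNF473, a part of the processing complex, had a change of -0.14 (adjusted p = 0.641).

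Among histone chaperones and enzymes that handle new histones, 7 of 17 tested rose and 1 fell, with a median of 0.40. ASF1B, which hands new H3 and H4 to chromatin assembly, measured -0.23 and -0.41 with shControl, 0.36 and -0.83 with shNontarget, 1.20 and 1.40 with shBEX2-1 and 1.70 and 1.84 with shBEX2-2, and rose by 1.81 (SE 0.25, adjusted p = 0.003). HJURP, the chaperone of CENPA, rose by 1.53 (SE 0.26, adjusted p = 0.00635). The other 5 were CHAF1A (1.38) and CHAF1B (1.20) of the assembly factor CAF-1, ANP32E (1.07), NASP (0.96) and DAXX (0.40). IPO4, an importin that carries histones, fell by 0.52 (adjusted p = 0.0375), and ATRX had a change of -0.43 (adjusted p = 0.0634). Beside these, and against the same shares of all genes, 39 of the 42 S phase genes tested rose and none fell, with a median of 1.54, and all 42 were lower in shBEX2-1 than in shBEX2-2, the opposite sign to the 17 H2B genes. The part of cell cycle phase in the histone values was not tested.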

How the data were processed

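The deposited files held processed intensity per spot for 8 arrays, which the authors made with Agilent Feature Extraction 10.7.3.1 by background subtraction and detrending within each array, with low values set to a surrogate (19.9% to 25.86% of spots). The deposited detection marks, coded as other values, give whether a spot was well above background. Control spots were left out. Intensities were taken to log2 and the 75th percentile of each array was subtracted. After averaging replicate spots, probes marked above background on fewer than 4 of the 8 arrays were dropped, and each of the 20343 genes was represented by its brightest remaining probe. The models were limma 3.58.1 with a trend (R 4.3.3), with 1 model of 2 arms and 1 of 4 vectors, adjusted over all genes and called at 0.05. Permutation tests used scipy 1.17.1. In simulated data on these 20343 genes, 34% of genes changed by 1 and 87.5% of those changed by 2 on the log2 scale were found. Of the genes called there, 6.85% and 7.41% were not among those changed. The simulated arrays had independent noise, no difference between vectors of an arm and no array that stood apart, so recovery on the real arrays may differ. The histone genes as the subject, and the gene lists, were chosen with earlier results of these data known, although the rule for members reads only gene names. Genes were named by a rule for each class (largest calls without overlap), and those outside it, such as HIST1H1C, HIST1H2BK, HIST2H2BE, HIST1H2BI, HIST1H2BM, HIST1H2BD, HIST1H4C and HIST4H4, were chosen after their values were seen. Probe positions are those of the array design (hg19). A further immune marker is not reported here.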

Additional observations from a re-analysis of the deposited data

Results flagged for a closer look

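Among 74 groups of 4 arrays of named genes, 3 held an array whose gap to the nearest other exceeded Dixon's critical value, where chance alone flags about 1 in 20 groups. HIST1H4A measured 0.90 on shNontarget replicate 1, against -0.20 to -0.06 on the other control arrays. HIST1H1T measured -7.54 on shBEX2-2 replicate 1, against -6.21 to -6.01 on the other knockdown arrays, all of them not well above background. IPO4 measured 0.40 on shBEX2-2 replicate 2, against 0.12 to 0.16 on the others.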

How the results depend on the processing

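The number of members that rose over all knockdown arrays was 16 and ran from 6 to 36 as each array was left out. It was 37 with shControl as the only control, 0 with shNontarget as the only control, 28 by the methods' t-test at its threshold (13.7% of all genes) and 5 after Benjamini-Hochberg (5.41%), and 9 by rank product (2.27%). The 2 that fell stayed 2 with each array left out, and were 1 with normexp, 1 with the mean of a gene's probes and 0 with shNontarget as the only control. In shBEX2-1 the 4 that rose were 8 with quantile normalization, 9 with normexp and 0 with shNontarget alone, and ran from 0 to 54 with an array left out. The 1 that fell there was 2 with detection on all 8 arrays, with no trend or with shNontarget alone, 0 with the mean of probes, and 0 to 11 with an array left out. In shBEX2-2 the 8 that rose were 4 with no filter on dim probes, 2 with shNontarget alone and 0 to 38 with an array left out, and the 5 that fell were 3 with shControl alone and 0 to 21. Calls between the control vectors ran from 0 to 60 and those between the sublines from 0 to 18 with an array left out, and quantile normalization gave 1 between the sublines. Shares of all genes called moved with the setting too. Over all knockdown arrays 0.973% were higher with shNontarget as the only control and 17.2% with shControl. Where a count stands without its share, its move is not read as particular to the members. The H1 median was 1.37 against shControl and 0.75 against shNontarget. Signs turned for H3F3A without shNontarget replicate 2 (range -0.0525 to 0.346 with an array left out), H3F3B without shNontarget replicate 1 (range -0.178 to 0.0511), HIST2H2BE with the mean of its probes (-0.75) and ZNF473 with normexp (0.14). Leaving out a shNontarget array takes the gap between those arrays out of the spread; the cause of the other moves was not tested. The replicate numbers did not pair the arrays in every case (correlations of deviations from -0.064 to 0.261 over the 6 pairs of vectors), and with the number as a replicate block 19 rose and 2 fell over all arrays, 8 and 1 in shBEX2-1 and 12 and 5 in shBEX2-2. HIST1H1A, HIST1H1B, HIST1H1D, HIST1H3B, HIST2H3A and HIST1H4A kept their call in 18 of 19 alternatives, all but the one with shNontarget as the only control.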

Other observations

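HIST1H1T measured 0.52 on shControl replicate 1 and -5.43 on shControl replicate 2, and lay at or below -4.49 on the other arrays. HIST1H4G measured -2.82 on shBEX2-1 replicate 1, the single array on which it was well above background, and lay at or below -6.38 on the rest.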
